A study of Mus musculus with 16 samples.

Results

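Liver RNA of 4 mice given cadmium and a selenium-enriched diet (Cd+Se) was compared with that of 4 mice given cadmium alone (Cd), 8 of the 16 mice of a study with 4 groups. The mice were wild-type C57BL/6J males, given in the study's methods as aged 8 to 12 weeks. Its scheme has the diet of 3 months start at 8 weeks, so diet-fed mice were older than that when their livers were taken. The age of the mice without the diet at that point is not given. Cd and Cd+Se mice both received CdCl2 intraperitoneally, once a day at 1.25 mg/kg for 7 days. The Cd+Se mice had in addition eaten a diet with selenomethionine (SeMet) at 2 ppm for 3 months. The diet is thus the treatment that differs between the groups compared, and whether they also differ in age cannot be told. The control group had neither treatment and the Se group the diet only, and both enter the model that estimates the spread. Cd mice carry the numbers 1, 2, 5 and 6 and Cd+Se mice the numbers 13 to 16. Members were the protein-coding genes whose TPM, the length-normalised abundance of a transcript, averaged 1 or higher over the 16 libraries. This left 10483 genes of the 57010 deposited, and each test was run with TPM as deposited and after each library was centred on its own median. Fold changes, standard errors and adjusted p of single genes are printed as deposited unless centring is named.

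Cadmium is a toxic metal that the liver takes up and binds to metallothioneins, small cysteine-rich proteins whose genes the metal itself switches on. Selenomethionine supplies selenium for selenoproteins, most of them enzymes that reduce peroxides or thiols or proteins of the endoplasmic reticulum. Hepatocytes, the main cells of the liver, make plasma proteins, bile acids and urea, depend heavily on mitochondrial respiration and hold the adherens junctions that join them to their neighbours.

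The labels were first compared with genes that mark the treatments and the tissue. Mt1 and Mt2, the main metallothionein genes, lay between 3178 and 6070 and between 2433 and 5872 TPM in the 8 mice injected with Cd, and between 50.9 and 431 and between 19.6 and 306 TPM in the 8 others. Between Cd+Se and Cd their levels overlapped, with log2 differences of 0.24 (limma adjusted p = 0.758) and 0.23 (limma adjusted p = 0.834). The albumin gene Alb lay between 22135 and 50285 TPM and the apolipoprotein gene Apoa1 between 5897 and 12210 TPM in these 8 livers, and the transthyretin gene Ttr lay between 4715 and 7007 TPM and Cyp2e1 between 3180 and 5067 TPM, so these markers of hepatocytes were abundant in each. One Cd library stood apart from the rest. Its mouse, Cd mouse 5, had a median log2(TPM + 1) of 2.68 over the genes tested, against 2.90 in Cd mouse 6 and between 3.08 and 3.18 in the other 6 mice compared, and mitochondrially encoded genes took 22.2% of its TPM against 12.8% to 16.7% in those 6 mice and 18.0% in Cd mouse 6.

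In Cd+Se livers, 1560 protein-coding genes were higher than in Cd livers and 205 were lower at a limma adjusted p under 0.05 with TPM as deposited, which is 14.9% and 1.96% of the genes tested. After median centring the balance changed to 913 higher (8.71%) and 1088 lower (10.4%). The median log2 fold change of all protein-coding genes moved with it, from 0.19 to -0.01. A change is therefore called a rise or a fall below only where it passed the threshold with the same sign under both scalings. There were 908 such rises (8.66%) and 205 such falls (1.96%), with a median size of 0.64 and 0.50 on the log2 scale. All falls called with TPM as deposited were also called after centring, whereas 652 of the 1560 rises were not. Of these genes 7 carried a KEGG ferroptosis or glutathione annotation in the deposited table. They were 5 rises and 2 falls among 86 tested genes so annotated, to be read beside 8.66% and 1.96% of all genes. The other 903 rises and 203 falls lay outside the pathways the study followed. When the 8 libraries compared were modelled alone, 43 rises and 9 falls held. Within the full model, leaving out Cd mouse 5 gave 417 rises and 134 falls, and leaving out Cd+Se mouse 14 gave 426 and 68. Falls also numbered 132 without Cd mouse 1, 111 without Cd mouse 2 and 128 without Cd+Se mouse 15. Below, a call is said to be lost without a mouse where the limma adjusted p as deposited, or where so stated after centring, then passed 0.05.

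The groups did not overlap for 1845 genes whose 4 Cd+Se mice all lay above the 4 Cd mice (17.6%) and 293 whose mice all lay below (2.80%). After centring these were 987 (9.42%) and 1178 (11.2%). Of the 908 rises 833 were without overlap as deposited and 713 under both scalings. Of the 205 falls 167 were without overlap as deposited and the same 167 under both. A typical gene that rose had a Cd mean at 0.578 and a Cd+Se mean at 0.938 of the control mean, by the median over these genes, and a typical gene that fell had 1.41 and 0.996. These genes were selected through the Cd mice, so the ratios describe them and test nothing. In the Se group the same medians were 0.993 and 0.995 of the control mean.

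Rises and falls differed in transcript length. Protein-coding genes were divided by the length of their longest annotated transcript into 4 classes of equal size. In the shortest class (114 to 2120 nucleotides) 68 rose and 121 fell, and in the longest class (4693 nucleotides or more) 375 rose and 16 fell. The median log2 fold change with TPM as deposited went from 0.04 in the shortest class over 0.17 and 0.24 to 0.29 in the longest. Each gene's centred log2 level was also set against its mean over the 16 libraries, and the median of these deviations in the longest class minus that in the shortest was -0.25 to -0.13 in the Cd libraries, whereas Cd+Se libraries ranged from -0.01 to 0.13. The lists below are therefore also counted after a correction of each library for transcript length and GC content, and the source of the length difference was not tested. With that correction and centring, 672 of the 10467 protein-coding genes with a known length were higher and 840 lower. List counts given after it are to be read beside these. Rises and falls counted in any list below are to be read beside the 8.66% and 1.96% of all protein-coding genes.

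**Figure D1:**
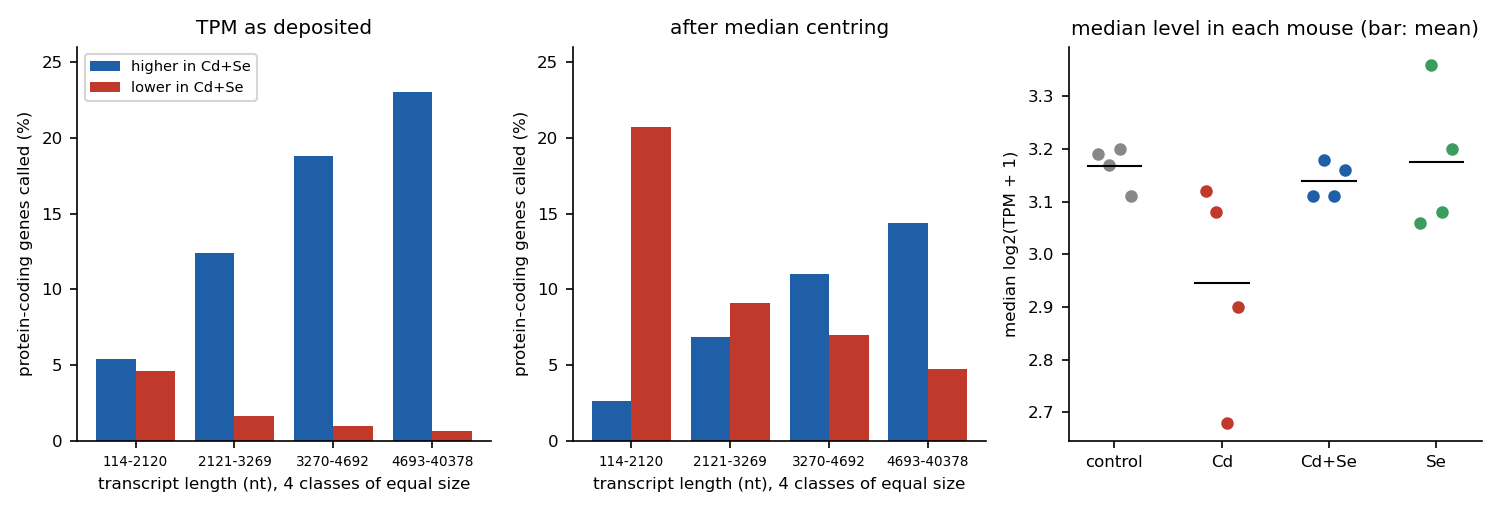
Left and middle, percent of protein-coding genes called higher (blue) or lower (red) in Cd+Se than in Cd, in 4 classes of transcript length, with TPM as deposited and after median centring. Right, the median log2(TPM + 1) of the genes tested in each mouse, where Cd mouse 5 lies lowest at 2.68. Higher calls grew from 5.42% in the shortest to 23% in the longest class as deposited, and lower calls made up 20.7% of the shortest class after centring.

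The 12 genes with the largest rises among those whose groups did not overlap were led by Slc15a2, which encodes a peptide transporter, and included enzymes, an acute-phase inhibitor and regulators of RNA and of membrane traffic. Slc15a2 was 1.21, 0.450, 1.46 and 2.80 TPM in Cd mice and 14.8, 8.24, 10.3 and 4.26 TPM in Cd+Se mice (log2 fold change 2.05, standard error 0.46, limma adjusted p = 0.0132). The highest Cd mouse lay below the lowest Cd+Se mouse, and the Cd+Se mean of 9.41 TPM was also above the 2.71 TPM of control mice. After centring the call was lost without Cd mouse 1 or 2 (limma adjusted p = 0.0502 to 0.0623). Cyp7a1, the rate-limiting enzyme of bile acid synthesis from cholesterol, was 14.1, 29.4, 16.7 and 8.37 TPM in Cd mice and 41.1, 63.1, 49.9 and 41.4 TPM in Cd+Se mice (log2 fold change 1.56, standard error 0.30, limma adjusted p = 0.00722). It remained under the 98.9 ± 26.4 TPM (SD, n = 4) of control mice in every one of the 8 livers. A1cf, an RNA-binding partner of the enzyme that edits apolipoprotein B mRNA, was 14.9, 17.8, 8.41 and 12.3 TPM in Cd mice and 35.9, 45.0, 36.9 and 34.5 TPM in Cd+Se mice (log2 fold change 1.48, standard error 0.18, limma adjusted p = 8.13e-04). Its Cd+Se values were narrow and all above the Cd range.

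Pdxk, the kinase that makes the active form of vitamin B6, was 5.84, 5.74, 2.87 and 6.71 TPM in Cd mice and 11.6, 17.0, 18.6 and 15.4 TPM in Cd+Se mice (log2 fold change 1.43, standard error 0.19, limma adjusted p = 0.00135). Urad, an enzyme of uric acid breakdown, was 12, 12.1, 5.55 and 9.25 TPM and 32.5, 27.9, 27.8 and 18.4 TPM in the same order (log2 fold change 1.39, limma adjusted p = 0.00298). For both genes Cd mouse 5 was lowest. That all Cd mice lay below the Cd+Se mice was fixed by the choice of these genes. Arf6, a small GTPase of membrane traffic, rose by 1.56 on the log2 scale from a Cd mean of 4.09 ± 1.78 TPM to 13.8 ± 4.60 TPM (SD, n = 4, limma adjusted p = 0.00534). Cyb5d1 rose by 1.59, from 3.06 ± 0.949 to 11.1 ± 2.58 TPM (SD, n = 4, limma adjusted p = 8.13e-04). Steap4, a metalloreductase of iron and copper, rose by 1.33 (limma adjusted p = 0.00470), and its Cd+Se mean of 98.1 TPM lay above the control mean of 75.9 TPM.

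Fkbp5, a co-chaperone of the glucocorticoid receptor that glucocorticoids induce, was 11.3, 11.3, 7.97 and 9.82 TPM in Cd mice and 20.2, 16.8, 87.0 and 26 TPM in Cd+Se mice (log2 fold change 1.48, limma adjusted p = 0.0216). Cd+Se mouse 15 was far above the other 3 mice of its group, and the call was lost without Cd mouse 5 (limma adjusted p = 0.0703) and, after centring, also without Cd mouse 1, 2 or 6 (limma adjusted p = 0.0537 to 0.0649). Without Cd+Se mouse 15 the log2 fold change was 0.98. Serpina3m, a protease inhibitor of the acute phase, was 122, 77.8, 72.4 and 106 TPM in Cd mice and 228, 167, 433 and 174 TPM in Cd+Se mice, again highest in mouse 15 (log2 fold change 1.31, limma adjusted p = 0.00978). Ugt2b38, a glucuronosyltransferase, rose by 1.45 (limma adjusted p = 0.0102), and the flavin monooxygenase gene Fmo2 by 1.33 (limma adjusted p = 0.0178), a call lost without Cd mouse 5 (limma adjusted p = 0.0567) and, after centring, also without Cd mouse 2 or Cd+Se mouse 15 (limma adjusted p = 0.0568 to 0.0571). Serpina3m and Ugt2b38 belong to families of similar genes between which reads can be divided wrongly, so their levels are uncertain. When only the 8 libraries compared were modelled, 5 of these 12 genes passed the limma threshold as deposited and 10 after centring.

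**Figure D2:**
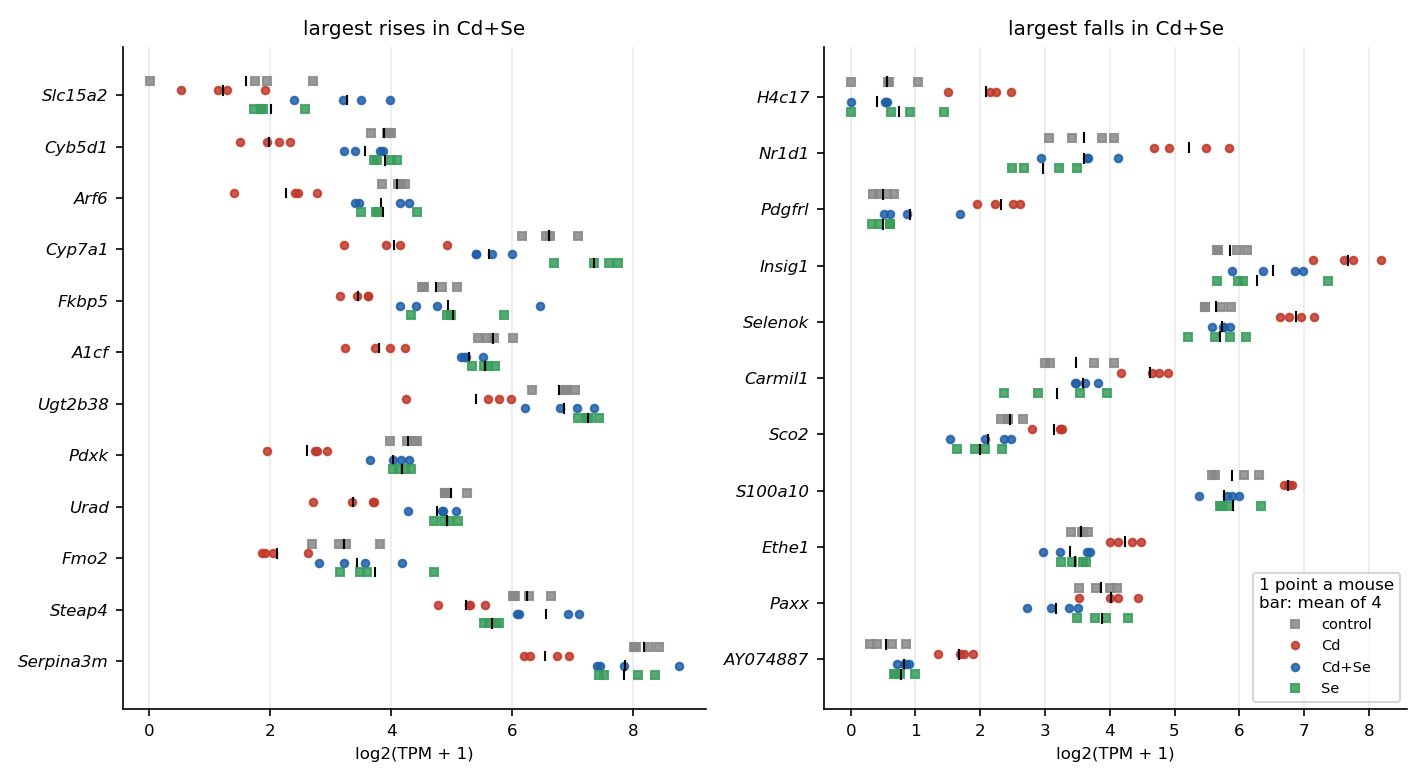
log2(TPM + 1) of genes with the largest rises (left) and the largest falls (right) in Cd+Se against Cd, with 1 point for each of the 4 mice per group and a bar at their mean. Blue points of Cd+Se lie wholly right of the red points of Cd on the left and wholly left of them on the right, which the choice of these genes fixes. Grey and green squares are the control and Se mice, which that choice did not use.

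Among the 12 genes with the largest falls was the clock repressor Nr1d1, a nuclear receptor that cycles over the day and silences Bmal1. Nr1d1 was 56.2, 44, 24.7 and 29 TPM in Cd mice and 16.5, 11.6, 6.70 and 11.7 TPM in Cd+Se mice (log2 fold change -1.63, standard error 0.31, limma adjusted p = 0.00635). Cd mice 1 and 2 were highest, and the Cd+Se mice lay near the 11.6 ± 3.80 TPM (SD, n = 4) of control mice. Selenok, a selenoprotein of the endoplasmic reticulum membrane, was 141, 123, 108 and 98.3 TPM in Cd mice and 53.2, 46.8, 53 and 57.1 TPM in Cd+Se mice (log2 fold change -1.14, standard error 0.17, limma adjusted p = 0.00298). Every Cd mouse had more Selenok mRNA than any Cd+Se mouse, and the control mean was 49.0 TPM. S100a10, a partner of annexin A2 at the plasma membrane, was 112, 107, 108 and 102 TPM in Cd mice and 58.0, 40.5, 62.7 and 54.9 TPM in Cd+Se mice (log2 fold change -0.99, limma adjusted p = 0.00577). The 4 Cd values of S100a10 were close together, Cd mouse 5 included.

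Insig1, which holds the regulator of cholesterol synthesis in the endoplasmic reticulum when sterols are plentiful, was 216, 289, 196 and 140.4 TPM in Cd mice and 125, 115, 81.9 and 58.2 TPM in Cd+Se mice (log2 fold change -1.16, limma adjusted p = 0.0261). The lowest Cd mouse and the highest Cd+Se mouse were close, and the call was lost without Cd mouse 2 or 5 or Cd+Se mouse 15 or 16 (limma adjusted p = 0.0563 to 0.0728). Sco2, which delivers copper to complex IV of the respiratory chain, was 8.48, 8.43, 8.62 and 5.99 TPM and 4.58, 3.21, 4.16 and 1.89 TPM in the same order (log2 fold change -1.03, limma adjusted p = 0.00640). Ethe1, a mitochondrial enzyme that clears hydrogen sulfide, was 21.3, 19.4, 16.5 and 15.1 TPM and 8.42, 12, 6.87 and 11.5 TPM (log2 fold change -0.85, limma adjusted p = 0.00607). Both are mitochondrial proteins encoded in the nucleus, and both were lower in each Cd+Se mouse than in any Cd mouse.

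Pdgfrl fell by 1.41 on the log2 scale, from 4.08 ± 0.995 to 0.997 ± 0.832 TPM (SD, n = 4, limma adjusted p = 0.00317). H4c17, a histone H4 gene, was 4.56, 3.73, 3.43 and 1.83 TPM in Cd mice, between 0.450 and 0.470 TPM in Cd+Se mice 13 to 15 and listed at 0 in Cd+Se mouse 16 (limma adjusted p = 0.00511). Histone H4 genes are near-identical copies whose mRNA mostly has no poly(A) tail, so this value is uncertain in a poly(A)-selected library. Carmil1, which regulates the capping of actin filaments, fell by 1.03 (limma adjusted p = 0.0302), the DNA repair gene Paxx by 0.85 (limma adjusted p = 0.0187) and AY074887 by 0.85 (limma adjusted p = 0.00585). Calls of Carmil1 were lost without Cd mouse 1, 2 or 5 or Cd+Se mouse 13, 14, 15 or 16 (limma adjusted p = 0.0526 to 0.0784) and of Paxx without Cd mouse 5 or Cd+Se mouse 15 (limma adjusted p = 0.0503 to 0.0552). With the 8 libraries alone 6 of the 12 falls passed as deposited and 12 after centring.

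The respiratory chain, whose complexes I to IV pass electrons to oxygen and whose complex V makes ATP, had the largest number of falls among the 48 lists of genes looked at. Of 77 nuclear genes for its subunits tested, 27 were lower in Cd+Se as deposited and 0 higher, against 1.96% lower among all protein-coding genes, and 67 were lower after centring, against 10.4%. All 27 held. The median log2 fold change was -0.30 as deposited and -0.50 after centring, beside 0.19 and -0.01 for all protein-coding genes. The mean centred log2(TPM + 1) of the 77 genes lay between 4.44 and 4.61 in Cd mice and between 3.98 and 4.09 in Cd+Se mice, without overlap, and between 4.01 and 4.33 in control mice. Their transcripts are short, with a median of 1129 nucleotides, and after the length and GC correction with centring 45 were lower, 1 was higher and the median was -0.32. Without Cd mouse 5, 24 were lower as deposited and 60 after centring.

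The complexes shared this pattern to different degrees. Complex I, which oxidises NADH, had 16 falls among 38 genes (median -0.36), complex III 2 of 9 (median -0.18), complex IV, cytochrome c oxidase, 5 of 11 (median -0.32) and complex V, ATP synthase, 4 of 15 (median -0.22). None of the 4 genes of complex II, succinate dehydrogenase, held, and its median was 0.08. Ndufab1, the mitochondrial acyl carrier protein and a subunit of complex I, was 155, 109, 114 and 108 TPM in Cd mice and 74.0, 65.9, 71.4 and 75.6 TPM in Cd+Se mice (log2 fold change -0.74, standard error 0.15, limma adjusted p = 0.00878). Cox5b of complex IV was 278, 224, 211 and 205 TPM and 175, 128, 138 and 152 TPM (log2 fold change -0.63, limma adjusted p = 0.0204). Ndufa5 of complex I was 187, 160.2, 144 and 131 TPM and 99.2, 96.2, 92.7 and 113 TPM (log2 fold change -0.62, limma adjusted p = 0.00878). For each of the 3 genes the lowest Cd mouse lay above the highest Cd+Se mouse, and the Cd+Se means of 71.7, 148 and 100.2 TPM compare with control means of 70.5, 161 and 116 TPM. Cox5b alone of the 3 lost its call with a mouse left out, without Cd+Se mouse 14 (limma adjusted p = 0.0652). The other falls of the list ranged from -0.34 for Ndufv2 of complex I to -0.61 for Uqcrq of complex III on the log2 scale.

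Promoters of respiratory chain genes are known for sites of the factors NRF1, ERR and YY1, and 3 genes that fell are shown to make these letters visible. RefSeq promoter windows of 300 bases, from 250 before to 50 after the start (GRCm38.p6), matched 8405 of the tested protein-coding genes by symbol, and 65 of the respiratory chain list. On either strand the NRF1 motif was found in 24.6% of these 65 windows and in 11.2% of all windows. The ERR site AAGGTCA was found in 12.3% and 3.32%, and the YY1 motif AAGATGGCG in 9.23% and 3.56%. For NRF1, ERR and YY1 in that order, 68 windows of mitochondrial ribosomal protein genes gave 19.1%, 5.88% and 11.8%. In 32 windows of adherens junction genes the shares were 15.6%, 0% and 0%. A match of letters is not a bound site, and no binding was measured. The 3 windows are written 5′ to 3′ on the gene's strand with matches to these motifs in capitals.
Ndufa5, chr6:24527477-24527776, minus strand: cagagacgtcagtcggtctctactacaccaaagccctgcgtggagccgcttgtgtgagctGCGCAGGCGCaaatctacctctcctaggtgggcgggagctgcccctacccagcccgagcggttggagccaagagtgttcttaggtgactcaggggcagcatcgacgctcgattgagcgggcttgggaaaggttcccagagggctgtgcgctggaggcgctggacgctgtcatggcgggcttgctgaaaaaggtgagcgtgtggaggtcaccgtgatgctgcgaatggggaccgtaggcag
Atp5e, chr2:174464052-174464351, minus strand: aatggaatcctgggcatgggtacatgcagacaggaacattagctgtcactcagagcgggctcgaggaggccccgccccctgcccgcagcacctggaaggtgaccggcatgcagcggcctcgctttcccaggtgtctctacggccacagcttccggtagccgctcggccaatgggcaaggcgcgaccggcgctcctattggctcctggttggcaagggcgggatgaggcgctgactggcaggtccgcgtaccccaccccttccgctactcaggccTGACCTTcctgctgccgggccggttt
Ndufs5, chr4:123718137-123718436, minus strand: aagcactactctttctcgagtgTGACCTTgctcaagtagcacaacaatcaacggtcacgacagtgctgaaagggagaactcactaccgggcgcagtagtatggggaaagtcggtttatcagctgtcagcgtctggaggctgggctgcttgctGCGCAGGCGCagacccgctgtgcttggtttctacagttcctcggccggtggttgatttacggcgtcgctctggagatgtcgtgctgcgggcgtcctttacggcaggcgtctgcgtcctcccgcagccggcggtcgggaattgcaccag
Ndufa5 holds an NRF1 match on the reverse strand, Atp5e of complex V an ERR site on the reverse strand just after the start, and Ndufs5 of complex I one of each. The log2 fold change was -0.59 for Atp5e and -0.57 for Ndufs5.

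Genes encoded in the mitochondrial genome were split within the Cd group. Their summed TPM was 126128, 124164, 216828 and 175494 in Cd mice 1, 2, 5 and 6 and between 148225 and 163019 in Cd+Se mice. Cd mice 1 and 2 were thus below, and Cd mice 5 and 6 above, every Cd+Se mouse. Of 13 tested, 1 was lower in Cd+Se under both scalings, and 9 had a log2 fold change below 0, with a median of -0.17 as deposited, -0.36 after centring and -0.02 with quantile normalization. The lower gene was mt-Atp6 of ATP synthase, at 3401, 3624, 4580 and 3152 TPM in Cd mice and 2274, 2323, 2608 and 2413 TPM in Cd+Se mice (log2 fold change -0.60, limma adjusted p = 0.0142). Mitochondrial ribosomal protein genes, whose products translate these mRNAs, had 12 falls and 1 rise among 77, against 1.96% and 8.66% of all genes. After centring 36 were lower and 1 higher, against 10.4% and 8.71%. Their medians were -0.08 as deposited and -0.27 after centring. Mrpl57 fell by 0.75 (limma adjusted p = 0.0181) and Mrps35 by 0.62 (limma adjusted p = 0.0148), while Mrps23 rose by 0.90 (limma adjusted p = 0.0235). Mrpl57 lost its call without Cd+Se mouse 14 (limma adjusted p = 0.0526), and Mrps23 without Cd mouse 5 or Cd+Se mouse 14 or 15 (limma adjusted p = 0.0552 to 0.0646). After the length and GC correction with centring, 25 genes of this list were lower and 1 was higher.

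The proteasome, which degrades ubiquitin-tagged proteins, had 4 falls and 0 rises among 36 genes, with medians of -0.07 as deposited and -0.27 after centring, when 17 were lower and 0 higher against 10.4% and 8.71% of all genes. Psmb3 was 151, 169, 140.3 and 135 TPM in Cd mice and 97.4, 108, 111 and 116 TPM in Cd+Se mice (log2 fold change -0.46, limma adjusted p = 0.0118), with the groups apart. Psma3 fell by 0.57 (limma adjusted p = 0.0222) and Psma2 by 0.41 (limma adjusted p = 0.0217). Their calls were lost without Cd mouse 2 or 5 or Cd+Se mouse 14 (limma adjusted p = 0.0506 to 0.0700) for the former and without Cd mouse 2 (limma adjusted p = 0.0505) for the latter. Cytosolic ribosomal protein genes gave 1 higher and 0 lower call among 77 as deposited but 24 lower calls after centring, so their direction rests on the scaling. After the length and GC correction with centring 7 were higher and 4 lower. Rps3 was the member that held, higher by 0.78 (limma adjusted p = 0.0297), a call lost without Cd mouse 2, 5 or 6 or Cd+Se mouse 14, 15 or 16 (limma adjusted p = 0.0514 to 0.0919). Splicing factor genes had 2 rises, Prpf8 at the core of the spliceosome by 0.81 (limma adjusted p = 0.00480) and Snrpb by 0.44 (limma adjusted p = 0.0194), and 1 fall, Snrpd2 at -0.36 (limma adjusted p = 0.0357), among 46. After centring 2 splicing factor genes were higher and 14 lower (median -0.19) against 8.71% and 10.4% of all genes, and 2 and 12 with the length and GC correction as well. Snrpb lost its call without Cd mouse 5 or Cd+Se mouse 14 (limma adjusted p = 0.0535 to 0.0601) and, after centring, also without Cd mouse 1, 2 or 6 or Cd+Se mouse 15 or 16 (limma adjusted p = 0.0579 to 0.113), and Snrpd2 without Cd mouse 1, 2 or 5 or Cd+Se mouse 14, 15 or 16 (limma adjusted p = 0.0554 to 0.106).

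Lysosomal genes, for the hydrolases and membrane proteins of the organelle that digests what cells take up or discard, rose in part and none fell. Of 30 tested, 6 rose and 0 fell, against 8.66% and 1.96% of all protein-coding genes, with medians of 0.37 and 0.18 as deposited and centred. Psap, the precursor of the saposins that help degrade sphingolipids, was 145, 115, 89.0 and 127 TPM in Cd mice and 196, 176, 209 and 168 TPM in Cd+Se mice (log2 fold change 0.67, standard error 0.14, limma adjusted p = 0.00984). Scarb2, a lysosomal membrane protein, was 45.3, 37.6, 23.5 and 38.0 TPM and 46.9, 56.7, 70.5 and 59.9 TPM (log2 fold change 0.70, limma adjusted p = 0.0138). Lipa, the acid lipase for cholesteryl esters and triglycerides, was 56.0, 49.5, 29.7 and 41.2 TPM and 66.3, 81.8, 68.8 and 69.2 TPM (log2 fold change 0.72, limma adjusted p = 0.0259). In all 3 the groups were apart, with Cd mouse 5 lowest. Lipa lost its call without Cd mouse 5 or 6 or Cd+Se mouse 14 (limma adjusted p = 0.0521 to 0.0880). After the length and GC correction with centring 6 lysosomal genes were higher and 0 lower, and 4 were higher as deposited without Cd mouse 5. The E-box CACGTG, which the lysosomal regulator TFEB can bind, was in 29.2% of 24 lysosomal promoter windows and 10.4% of all. Autophagy genes had 1 rise, Atg16l1 by 0.60 (limma adjusted p = 0.0216), and 1 fall, Atg101 at -0.40 (limma adjusted p = 0.0351), among 32. Calls were lost without Cd mouse 5 or Cd+Se mouse 14 or 15 (limma adjusted p = 0.0572 to 0.0714) and, after centring, also without Cd mouse 1, 2 or 6 or Cd+Se mouse 16 (limma adjusted p = 0.0508 to 0.0686) for Atg16l1 and without Cd mouse 1, 2 or 5 or Cd+Se mouse 13, 14 or 16 (limma adjusted p = 0.0532 to 0.0858) for Atg101.

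**Figure D3:**
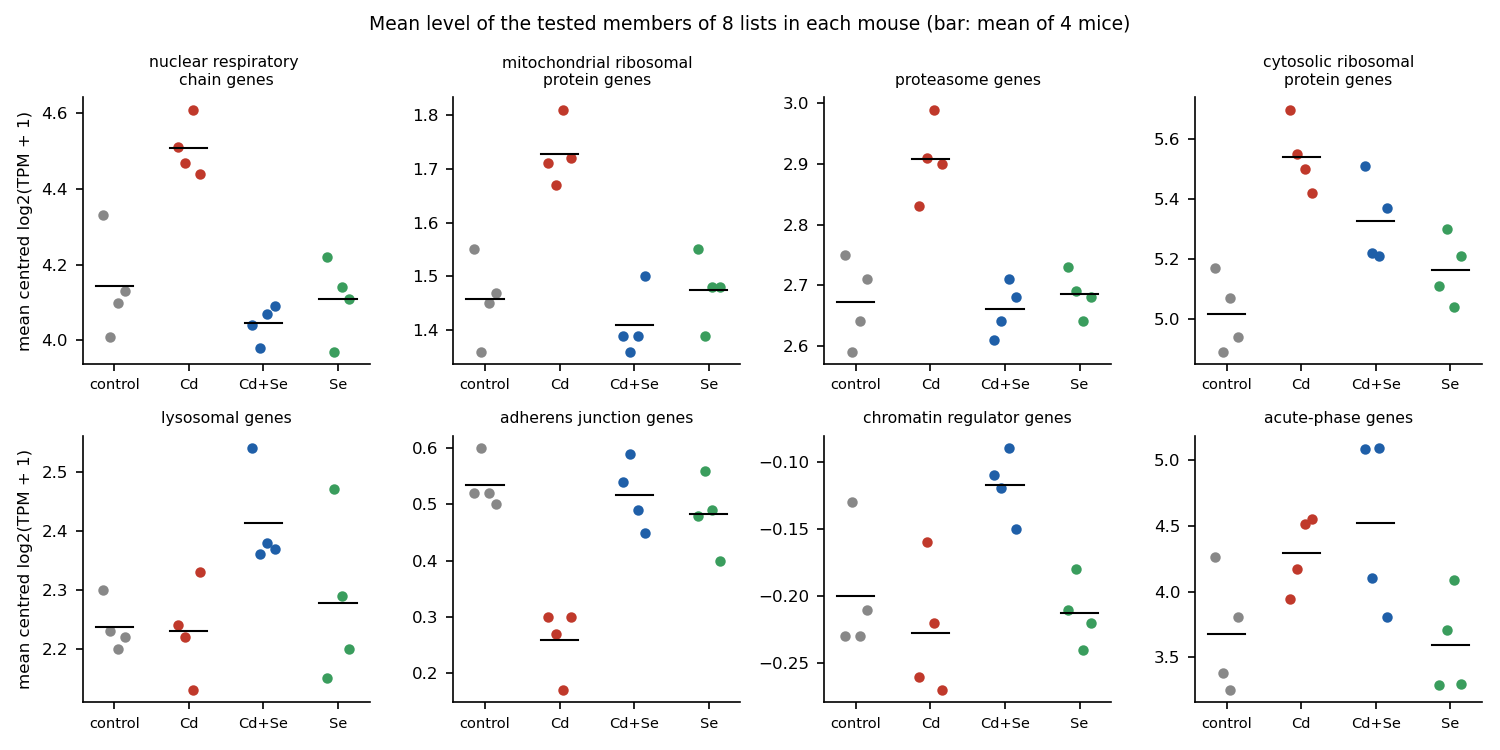
Mean centred log2(TPM + 1) of the tested members of 8 gene lists in each mouse, by group, with a bar at the mean of 4 mice. Cd mice lie wholly above Cd+Se mice for nuclear respiratory chain genes, mitochondrial ribosomal protein genes and proteasome genes, and wholly below them for lysosomal, adherens junction and chromatin regulator genes, while cytosolic ribosomal protein and acute-phase genes overlap. The y axes differ between panels.

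Adherens junctions join neighbouring epithelial cells through cadherins tied to actin, and their list had the largest number of rises. Of 43 genes tested, 19 were higher in Cd+Se as deposited and 0 lower, against 14.9% and 1.96% of all genes. After centring 17 were higher and 1 lower. The rises that held numbered 17, against 8.66% of all genes, and the medians were 0.45 and 0.26. Met, the receptor of hepatocyte growth factor, was 10.8, 8.66, 7.16 and 9.78 TPM in Cd mice and 19.8, 19.7, 19.4 and 14.1 TPM in Cd+Se mice (log2 fold change 0.93, standard error 0.14, limma adjusted p = 0.00316). Vcl, vinculin, was 1.89, 1.38, 0.710 and 1.34 TPM and 3.88, 4.01, 2.33 and 3.32 TPM (log2 fold change 0.92, limma adjusted p = 0.00534). Neither gene overlapped between groups or lost its call with a mouse left out. Smaller rises included Ctnnd1 for the catenin p120 (0.68), Tjp1 for the tight junction protein ZO-1 (0.64) and Insr for the insulin receptor (0.63), all on the log2 scale. The length and GC correction with centring left 10 higher and 1 lower, and 8 were higher as deposited without Cd mouse 5. Among 38 actin and tubulin cytoskeleton genes, Tpm3, a tropomyosin, rose by 0.78 (limma adjusted p = 0.00586) and Myh9, non-muscle myosin, by 0.68 (limma adjusted p = 0.0132), and S100a10 fell as given above.

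Chromatin regulators gave counts that changed with the scaling and with the correction for transcript length. Of 50 genes, 15 were higher and 0 lower as deposited, against 14.9% and 1.96% of all genes. After centring 9 were higher and 2 lower, against 8.71% and 10.4%, and 9 rises held, against 8.66%. After the length and GC correction with centring the balance turned to 3 higher and 7 lower, beside 672 and 840 of 10467 genes. The centred median went from 0.13 to 0.03, for transcripts with a median length of 8488 nucleotides. Ncor1, a corepressor of nuclear receptors, was 18.7, 18.8, 10.9 and 13.7 TPM in Cd mice and 25.2, 33.3, 30.7 and 25.9 TPM in Cd+Se mice (log2 fold change 0.87, limma adjusted p = 0.00615) and passed that correction too (limma adjusted p = 0.00276).

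Among hepatocyte transcription factors, 10 of 45 rose and 2 fell, against 8.66% and 1.96% of all genes, with a median of 0.18 close to that of all genes. Prox1, a homeodomain factor of liver development, was 11.5, 8.17, 7.21 and 12.7 TPM in Cd mice and 22.2, 16.9, 18.2 and 23.6 TPM in Cd+Se mice (log2 fold change 0.98, limma adjusted p = 0.00672). Ppara, the nuclear receptor of fatty acid oxidation, was 19.7, 18.4, 18.0 and 15.7 TPM and 38.6, 40.8, 32.0 and 26.9 TPM (log2 fold change 0.90, limma adjusted p = 0.00787). Both genes were higher in every Cd+Se mouse than in any Cd mouse, and every Cd+Se mouse lay below the control means of 25.4 and 41.2 TPM. The falls were Nr0b2, described with the bile acid genes, and the glucocorticoid-induced factor Klf15 at -0.66 (limma adjusted p = 0.0273). Hnf4a, the master regulator of hepatocytes, rose by 0.58 (limma adjusted p = 0.0239), a call lost without Cd mouse 5 or Cd+Se mouse 14 or 15 (limma adjusted p = 0.0526 to 0.0781) and, after centring, also without Cd mouse 1 or 2 (limma adjusted p = 0.0736 to 0.0794). Of 18 circadian clock genes 1 rose and 1 fell, the fall being that of Nr1d1.

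Bile acid genes moved in both directions, 4 up and 3 down of 31, against 8.66% and 1.96% of all genes. Besides Cyp7a1, Klb, the co-receptor through which FGF19-type hormones act on hepatocytes, rose by 0.93 (limma adjusted p = 0.0128). Nr0b2, the repressor SHP that limits Cyp7a1, was 25.6, 18.7, 18.2 and 26 TPM in Cd mice and 10.6, 10.3, 17.9 and 10.6 TPM in Cd+Se mice (log2 fold change -0.81, limma adjusted p = 0.0243). Cd+Se mouse 15 lay just below the lowest Cd mouse, the other 3 Cd+Se mice well below, and the call was lost without Cd mouse 6 or Cd+Se mouse 14 or 16 (limma adjusted p = 0.0572 to 0.0714). Abcb11, the bile salt export pump, fell by 0.65 on the log2 scale (limma adjusted p = 0.0380), and the bile acid receptor gene Nr1h4 rose by 0.63 (limma adjusted p = 0.0139).

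Secreted proteins were split as well, with 3 rises and 4 falls among 36 genes, against 8.66% and 1.96% of all genes. Apoa5, an activator of lipoprotein lipase, was 725, 667, 423 and 671 TPM in Cd mice and 1330, 1328, 1217 and 1029 TPM in Cd+Se mice (log2 fold change 1.0, standard error 0.16, limma adjusted p = 0.00317). Apom, an HDL protein that carries sphingosine-1-phosphate, was 209, 162, 53.5 and 125 TPM and 216, 279, 281 and 256 TPM (log2 fold change 1.06, limma adjusted p = 0.0225), with a wide Cd range. Its call was lost without Cd+Se mouse 14 (limma adjusted p = 0.0620), and without Cd mouse 5 its log2 fold change was 0.66. Igfbp4, which binds insulin-like growth factors and is also the one rise among 19 growth hormone and IGF genes, rose by 0.69 (limma adjusted p = 0.00594). The 4 falls were the small apolipoproteins Apoc3 (-0.52), Apoa2 (-0.50), Apoc4 (-0.40) and Apoc1 (-0.38), on the log2 scale. Major urinary protein genes, 20 near-identical copies that cannot be told apart with confidence, had 0 higher and 0 lower calls in limma and a median of -0.57, and the largest difference was -1.50 for Mup8 (limma adjusted p = 0.0845, unadjusted p = 0.0196).

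In fatty acid oxidation 3 of 42 genes rose and 0 fell, against 8.66% and 1.96% of all genes. Their summed TPM was 8388 in Cd+Se mouse 15, 3884, 4089 and 4407 in Cd+Se mice 13, 14 and 16, and between 3842 and 4542 in Cd mice, so mouse 15 alone stood above the Cd range. The rises were Ppara, Cpt1a, the carnitine transferase that controls entry into mitochondria, by 0.77 (limma adjusted p = 0.00884, lost after centring without Cd+Se mouse 15 (limma adjusted p = 0.0511)), and Hadha of the trifunctional protein by 0.76 (limma adjusted p = 0.0154), the last with its call lost without Cd mouse 5 (limma adjusted p = 0.0506) and, after centring, also without Cd mouse 2 or Cd+Se mouse 14 (limma adjusted p = 0.0511 to 0.0536). Lipogenesis had 1 rise, the triglyceride synthase gene Dgat2, at 149, 134, 101 and 142 TPM in Cd mice and 177, 199, 191 and 210.4 TPM in Cd+Se mice (log2 fold change 0.57, limma adjusted p = 0.0118), among 28 genes. Cholesterol synthesis had 1 fall, Insig1, among 27. Of 27 gluconeogenesis and glycogen genes 2 rose, among them Pcx for pyruvate carboxylase by 0.66 (limma adjusted p = 0.0149). The 1 fall was the glucokinase regulator Gckr, from 169 ± 27.2 to 117 ± 16.4 TPM (SD, n = 4, limma adjusted p = 0.0175). Pcx lost its call after centring without Cd mouse 2 or 5 or Cd+Se mouse 14 or 15 (limma adjusted p = 0.0547 to 0.0790). In the urea cycle and amino acid list, 3 of 35 rose and 1 fell. Cps1, the entry enzyme of the urea cycle, was 354, 343, 228 and 377 TPM in Cd mice and 689, 621, 673 and 410.4 TPM in Cd+Se mice (log2 fold change 0.87, limma adjusted p = 0.00838), with Cd+Se mouse 16 just above the Cd range. Mat1a, which makes S-adenosylmethionine, rose by 0.95 (limma adjusted p = 0.00863), and the histidine-degrading enzyme Hal fell by 0.85 (limma adjusted p = 0.0355) with overlapping groups, a call lost without Cd mouse 1, 5 or 6 or Cd+Se mouse 14, 15 or 16 (limma adjusted p = 0.0563 to 0.0953).

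Cytochrome P450 enzymes of families 1 to 3 oxidise drugs and other foreign compounds. Of 30 of their genes, 4 were higher as deposited and 2 rose, against 14.9% and 8.66% of all genes, namely Cyp3a13 by 0.92 (limma adjusted p = 0.0154) and Cyp2c40 by 0.81 (limma adjusted p = 0.0192), while 0 fell. Cyp3a13 lost its call without Cd mouse 5 (limma adjusted p = 0.0517) and, after centring, also without Cd mouse 1 or 2 or Cd+Se mouse 13 or 15 (limma adjusted p = 0.0835 to 0.113), and Cyp2c40 without Cd mouse 5 or Cd+Se mouse 14 or 15 (limma adjusted p = 0.0515 to 0.0606) and, after centring, also without Cd mouse 2 or 6 (limma adjusted p = 0.0536 to 0.0549). Among 23 glucuronosyl and sulfotransferase genes 4 were higher as deposited and Ugt2b38 alone held.

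Of 22 metallothionein and zinc transporter genes, 4 rose and 0 fell, against 8.66% and 1.96% of all genes, none of them a metallothionein. Without Cd mouse 5, 2 were higher as deposited and 1 after centring. Slc39a14, an importer of zinc, iron and also cadmium, was 54.8, 52.9, 34.9 and 46.3 TPM in Cd mice and 73.2, 71.4, 136 and 71.4 TPM in Cd+Se mice (log2 fold change 0.85, limma adjusted p = 0.0147), with mouse 15 highest, and after centring the call was lost without Cd mouse 5 (limma adjusted p = 0.0525). Slc30a1, the zinc exporter of the plasma membrane, was 24.0, 18.4, 10.4 and 13.5 TPM and 28.4, 31.6, 31.2 and 25.5 TPM (log2 fold change 0.84, limma adjusted p = 0.0250), above the control mean of 16.1 TPM in every Cd+Se mouse. Its call was lost without Cd mouse 5 or 6 or Cd+Se mouse 14 or 15 (limma adjusted p = 0.0531 to 0.0885). Slc11a1, a divalent metal transporter of phagocytes, was 2.40, 2.18, 2.60 and 2.56 TPM and 8.59, 6.84, 5.68 and 5.02 TPM (log2 fold change 1.11, limma adjusted p = 0.0145). The Cd values of Slc11a1 were close together and all below the Cd+Se values, and after centring the call was lost without Cd mouse 1 or 2 (limma adjusted p = 0.0521 to 0.0556).

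Hmox1, the heme-degrading enzyme that NRF2 induces, was 19.6, 17.7, 15.8 and 18.9 TPM in Cd mice and 54.0, 26.3, 59.7 and 29.9 TPM in Cd+Se mice (log2 fold change 1.11, standard error 0.25, limma adjusted p = 0.0122). Cd+Se mice 13 and 15 were highest, and all 8 mice were above the control mean of 9.85 TPM. Among 30 NRF2 target genes outside the glutathione enzymes, Akr1c13 also rose, by 0.50 (limma adjusted p = 0.0253), and Txn1, thioredoxin, fell by 0.43 (limma adjusted p = 0.0175). Akr1c13 lost its call without Cd mouse 5 or Cd+Se mouse 14 or 16 (limma adjusted p = 0.0660 to 0.0760) and, after centring, also without Cd mouse 1 or 2 or Cd+Se mouse 15 (limma adjusted p = 0.0579 to 0.124). Of 19 selenoprotein genes, Selenop, the selenium carrier of plasma, rose by 0.48 (limma adjusted p = 0.0248) and Selenok fell, and 17 did not pass both scalings. After centring 1 selenoprotein gene was higher and 5 lower. The call of Selenop was lost without Cd mouse 5 or Cd+Se mouse 14 or 15 (limma adjusted p = 0.0550 to 0.0688) and, after centring, also without Cd mouse 1 or 2 or Cd+Se mouse 16 (limma adjusted p = 0.0603 to 0.104).

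Ddit3, the transcription factor CHOP, was 17.6, 19.7, 14 and 22.7 TPM in Cd mice and 9.59, 8.24, 10.3 and 13.3 TPM in Cd+Se mice (log2 fold change -0.78, limma adjusted p = 0.0244) and was the single member of 26 integrated stress response genes that held. The groups of Ddit3 did not overlap, and the call was lost without Cd mouse 6 or Cd+Se mouse 14 (limma adjusted p = 0.0626 to 0.0769). Endoplasmic reticulum chaperone genes had 1 rise, the stress sensor Atf6 by 0.73 (limma adjusted p = 0.0361), and 1 fall, the translocon subunit Sec61b at -0.71 (limma adjusted p = 0.0187), among 32. After centring 1 chaperone gene was higher and 7 lower (median -0.25) against 8.71% and 10.4% of all genes, with 4 Cd+Se mice wholly below the Cd mice for 11, against 11.2% of all genes. With the length and GC correction as well 0 were higher and 9 lower. Atf6 lost its call without Cd mouse 5 or 6 or Cd+Se mouse 14, 15 or 16 (limma adjusted p = 0.0567 to 0.122) and, after centring, also without Cd mouse 1 (limma adjusted p = 0.0936). Cytosolic and mitochondrial heat shock genes had 8 rises and 0 falls among 30, against 8.66% and 1.96% of all genes. Their median was 0.29 as deposited, beside 0.19 for all genes. Without Cd mouse 5, 2 were higher under either scaling, and with the 8 libraries alone 1 after centring. After Fkbp5 the largest were Hspa4l at 0.71 (limma adjusted p = 0.0417) and Hsp90aa1, the inducible HSP90, at 0.71 (limma adjusted p = 0.0245), both with overlapping groups. Their calls were lost without Cd mouse 5 or 6 or Cd+Se mouse 14, 15 or 16 (limma adjusted p = 0.0758 to 0.138) and, after centring, also without Cd mouse 2 (limma adjusted p = 0.0606) for the former and without Cd mouse 5 or Cd+Se mouse 14, 15 or 16 (limma adjusted p = 0.0513 to 0.0849) and, after centring, also without Cd mouse 1 or 2 (limma adjusted p = 0.0828 to 0.0861) for the latter.

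Of 34 apoptosis and necroptosis genes 3 rose and 0 fell, against 8.66% and 1.96% of all genes. The rises were the pro-apoptotic Bcl2l11 by 0.77 (limma adjusted p = 0.0101), Bak1 by 0.63 (limma adjusted p = 0.00735, lost after centring without Cd mouse 1 or 2 or Cd+Se mouse 13 or 14 (limma adjusted p = 0.0642 to 0.0820)) and the kinase Ripk1 by 0.57 (limma adjusted p = 0.0176), the last with its call lost without Cd mouse 5 or Cd+Se mouse 14 (limma adjusted p = 0.0535 to 0.0560) and, after centring, also without Cd mouse 2 (limma adjusted p = 0.0515). In the p53 target list of 26, the DNA damage sensor Xpc rose by 0.55 (limma adjusted p = 0.0113). None of 27 immediate early genes and none of 22 proliferation genes held in limma, where Nr4a1 differed most in the former at -0.90 (limma adjusted p = 0.292, unadjusted p = 0.139) and Rrm2 in the latter at 0.61 (limma adjusted p = 0.207, unadjusted p = 0.0828).

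Acute-phase genes encode plasma proteins and regulators that change in inflammation. Of 31 tested 3 rose and 0 fell, against 8.66% and 1.96% of all genes, with a median of 0.41. Their mean log2(TPM + 1) was 8.18 and 8.21 in Cd+Se mice 13 and 15, 7.28 and 6.97 in mice 14 and 16, and between 7.06 and 7.45 in Cd mice. Mice 13 and 15 were thus above the Cd mice and the other pair was not. The summed TPM of neutrophil markers moved with it, at 606 and 472 in mice 13 and 15, 133 and 114 in mice 14 and 16, and between 141 and 261 in Cd mice, and its part was not tested. To that sum Lcn2 gave 54.8 to 175 TPM in Cd and 35.8 to 403 TPM in Cd+Se mice, and Cxcl1 38.1 to 45.4 and 18.9 to 138 TPM. On the same list S100a9 was 19.6 to 22.5 TPM in Cd and 27.6 to 47.5 TPM in Cd+Se mice, without overlap. S100a8 was 9.19 to 15.6 and 13.2 to 22.7 TPM, which overlapped, while Ly6g, Mpo and Elane were at most 0.200 TPM in each of these mice. All 8 tested neutrophil markers had a log2 fold change above 0 as deposited and 7 after centring, though 0 were called under either scaling. The acute-phase rises were Steap4, Serpina3m and Il6st, the signal-transducing receptor of interleukin-6, at 12.6, 12.4, 8.22 and 9.31 TPM in Cd mice and 24.1, 23.7, 15.6 and 18.7 TPM in Cd+Se mice (log2 fold change 0.89, limma adjusted p = 0.00534). Complement had 3 rises among 26, against 8.66% of all genes, with 3 higher and 2 lower after centring. C3, the central component, was 1083, 968, 906 and 1415 TPM in Cd mice and 2046, 1649, 2470 and 1432 TPM in Cd+Se mice (log2 fold change 0.79, limma adjusted p = 0.0154). Cd mouse 6 was close to Cd+Se mouse 16, and the call was lost without Cd mouse 5 (limma adjusted p = 0.0519) and, after centring, also without Cd mouse 1 or 2 or Cd+Se mouse 13 or 15 (limma adjusted p = 0.0702 to 0.102). C6 of the membrane attack complex rose by 0.84 (limma adjusted p = 0.0147), a call lost without Cd+Se mouse 14 (limma adjusted p = 0.0501) and, after centring, also without Cd mouse 1 or 5 or Cd+Se mouse 15 (limma adjusted p = 0.0578 to 0.0893). Coagulation had 4 rises among 25, against 8.66% of all genes. F5 was 75, 70.9, 49.2 and 66.9 TPM in Cd mice and 108, 118, 119 and 89.8 TPM in Cd+Se mice (log2 fold change 0.73, limma adjusted p = 0.00698). F13b rose by 0.72 (limma adjusted p = 0.0133) and the anticoagulant protein S gene Pros1 by 0.72 (limma adjusted p = 0.0177), the last with its call lost without Cd mouse 5 (limma adjusted p = 0.0584) and, after centring, also without Cd+Se mouse 15 (limma adjusted p = 0.0538).

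Toll-like receptors sense microbial products. Of 21 Toll-like receptor pathway genes 3 rose and 0 fell, against 8.66% and 1.96% of all genes, with a median of 0.41. Tlr2, the receptor of bacterial lipopeptides, was 1.88, 1.29, 1.04 and 1.49 TPM in Cd mice and 5.56, 3.10, 3.67 and 1.76 TPM in Cd+Se mice (log2 fold change 0.84, limma adjusted p = 0.0154), with overlap through Cd+Se mouse 16 and a call lost without Cd mouse 5 (limma adjusted p = 0.0511) and, after centring, also without Cd mouse 1 or 2 or Cd+Se mouse 13, 14 or 15 (limma adjusted p = 0.0592 to 0.0931). The kinase genes Irak1 and Irak4 rose by 0.66 (limma adjusted p = 0.0116) and 0.65 (limma adjusted p = 0.0154), the latter with its call lost without Cd+Se mouse 14 (limma adjusted p = 0.0517) and, after centring, also without Cd mouse 1, 2 or 5 or Cd+Se mouse 15 (limma adjusted p = 0.0624 to 0.0932). Among 40 interferon-stimulated genes the GTPase genes Irgm2 and Iigp1 rose by 0.98 (limma adjusted p = 0.00471) and 0.49 (limma adjusted p = 0.0154), the latter lost after centring without Cd mouse 1, 2 or 6 or Cd+Se mouse 13 or 16 (limma adjusted p = 0.0625 to 0.0985). Antigen presentation had 2 falls among 23, against 1.96% of all genes. B2m, the light chain of MHC class I, fell by 0.38 (limma adjusted p = 0.0309) and H2-Q10 by 0.35 (limma adjusted p = 0.0472). Their calls as deposited were lost without Cd mouse 2 or 5 or Cd+Se mouse 14, 15 or 16 (limma adjusted p = 0.0564 to 0.0850) for B2m and without Cd mouse 1, 2 or 5 or Cd+Se mouse 13, 14, 15 or 16 (limma adjusted p = 0.0656 to 0.119) for H2-Q10, though both passed after centring in each of those fits.

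Markers of other liver cells were looked at for their sums and for single calls, to be read against rises of 8.66% and falls of 1.96% among all genes. In bulk tissue, fewer cells of a type and less RNA per cell cannot be told apart. Of 18 Kupffer cell markers 2 rose, C6 and Hmox1, which hepatocytes also express, and the summed TPM of the list lay between 197 and 296 in Cd and 297 and 439 in Cd+Se mice, without overlap. To that sum C6 gave 46.1 to 96.8 TPM in Cd and 102 to 165 TPM in Cd+Se mice, and Hmox1 15.8 to 19.6 and 26.3 to 59.7 TPM. Clec4f, Cd5l, Folr2, C1qa, Vsig4 and Fcna, which mark Kupffer cells more narrowly, each overlapped. Adgre1 (0.770 to 1.80 TPM in Cd and 2.32 to 4.45 TPM in Cd+Se mice) and Timd4 (0.110 to 0.220 and 0.240 to 0.650 TPM) did not. With C6 and Hmox1 included, 4 of the 18 markers lay wholly above in Cd+Se mice, and 3 after centring, against 17.6% and 9.42% of all genes. The mean log2(TPM + 1) of the list overlapped (between 2.86 and 3.21 in Cd and between 3.15 and 3.58 in Cd+Se mice, and between -0.10 and 0.31 and between 0.04 and 0.41 after centring). Monocyte and recruited macrophage markers had 2 rises among 19. Lyz2, lysozyme of myeloid cells, was 48.1, 47.9, 35.5 and 53.5 TPM in Cd mice and 109.6, 79.9, 63.5 and 82.6 TPM in Cd+Se mice (log2 fold change 0.83, limma adjusted p = 0.00972), and Cybb, a subunit of the phagocyte NADPH oxidase, rose by 0.67 (limma adjusted p = 0.0147). After centring the calls were lost without Cd mouse 1 or 5 (limma adjusted p = 0.0514 to 0.0587) for Lyz2 and without Cd mouse 1, 2 or 5 or Cd+Se mouse 13, 14 or 16 (limma adjusted p = 0.0553 to 0.0969) for Cybb. The summed TPM of this list was between 175 and 262 in Cd and 250.3 and 438 in Cd+Se mice, which overlapped. Its mean log2(TPM + 1) did not overlap as deposited (2.68 to 3.07 in Cd and 3.17 to 3.65 in Cd+Se mice) but did after centring (-0.10 to 0.17 and 0.06 to 0.55). Of the 19 markers 6 lay wholly above in Cd+Se mice, and 2 after centring, against 17.6% and 9.42% of all genes. Slc11a1 and Tlr2, members of neither list, rose beside these sums, whose part in those rises was not tested.

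Lyve1, a hyaluronan receptor of sinusoidal endothelium, was 3.57, 4.59, 1.04 and 3.34 TPM in Cd mice and 8.05, 5.84, 8.32 and 7.04 TPM in Cd+Se mice (log2 fold change 1.09, limma adjusted p = 0.0138), above the control mean of 2.79 TPM in each Cd+Se mouse. It was the single rise among 26 sinusoidal endothelial markers, whose sum was between 165 and 233 TPM in Cd and 144 and 269 TPM in Cd+Se mice, lowest in Cd+Se mouse 15 (144 TPM) and from 252 to 269 TPM in the other 3. Stellate cell and matrix markers had 2 rises among 22, the inhibitor of metalloproteinases Timp3 by 1.09 (limma adjusted p = 0.0135, lost after centring without Cd mouse 5 (limma adjusted p = 0.0555)) and Hgf, the ligand of Met, by 0.81 (limma adjusted p = 0.0170), the latter with its call lost without Cd mouse 5 or Cd+Se mouse 14 (limma adjusted p = 0.0536 to 0.0542) and, after centring, also without Cd mouse 1 or 2 or Cd+Se mouse 13 (limma adjusted p = 0.0505 to 0.0602). Their sum in Cd mice was between 202 and 309.8 TPM. Cd+Se mice 13, 14 and 16 had 432, 369 and 422 TPM, and Cd+Se mouse 15 had 167 TPM. That mouse alone made the groups overlap, and the other 3 lay above every Cd mouse. No neutrophil (8 tested), lymphocyte (1), cholangiocyte (2) or erythroid (6) marker held in limma. The largest differences among neutrophil, lymphocyte and erythroid markers were 0.69 for Cxcl2 (unadjusted p = 0.0131), -0.29 for Jchain (unadjusted p = 0.108) and -0.16 for Hba-a1 (unadjusted p = 0.626). Of all these markers none was at 0 TPM in all 8 mice, though Ly6g reached at most 0.0900 TPM in Cd and 0 TPM in Cd+Se mice and the cholangiocyte channel gene Cftr 0.0400 and 0.0300 TPM.

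**Figure D4:**
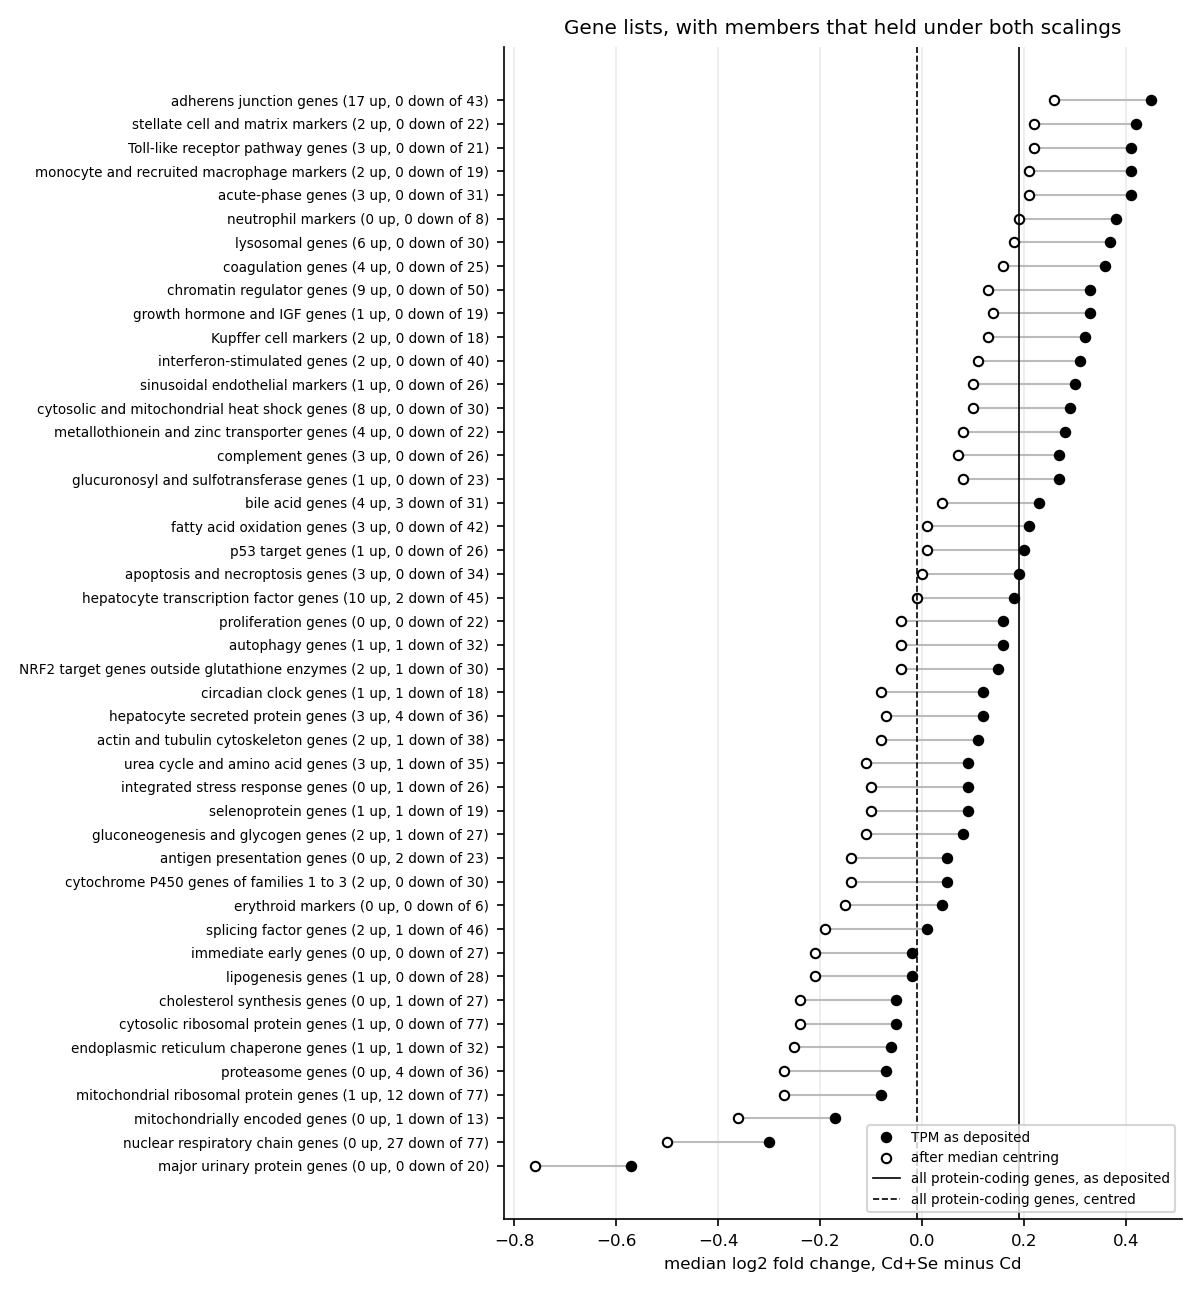
Median log2 fold change in Cd+Se against Cd of the tested members of each gene list with at least 5 tested genes, with TPM as deposited (filled) and after median centring (open). Vertical lines mark the median of all protein-coding genes under each scaling, and the counts give rises and falls that held under both. Adherens junction genes lie highest at 0.45, and major urinary protein and nuclear respiratory chain genes lowest at -0.57 and -0.30 as deposited.

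Whether the diet acts differently with and without Cd was asked with an interaction term, the Cd+Se minus Cd difference less the Se minus control difference. In Se against control, 0 protein-coding genes passed the limma threshold and 383 had an unadjusted p under 0.05. Over all protein-coding genes the interaction passed for 99 with a positive (0.944%) and 7 with a negative sign (0.0668%). It passed for 90 of the 908 rises and 7 of the 205 falls, among them A1cf (1.62 on the log2 scale, limma adjusted p = 0.0176), Cyb5d1 (1.58, limma adjusted p = 0.0176), Steap4 (1.91, limma adjusted p = 0.0176) and Selenok (-1.20, limma adjusted p = 0.0343). Steap4 was lower in Se than in control mice, at 49.7 against 75.9 TPM, a difference of -0.58 on the log2 scale that did not pass (limma adjusted p = 1.0). For Cyp7a1 the difference between Se and control was 0.74 (limma adjusted p = 1.0) and the interaction 0.83 (limma adjusted p = 0.277), so a difference between the diet's effect with and without Cd did not pass for this gene. The Cd and Cd+Se mice enter both the main comparison and the interaction, and the difference that selected the rises and falls is part of the latter. The counts of 90 and 7 among them are raised by that selection and are no separate support. Over all named genes the interaction passed for 18, for 1 without Cd+Se mouse 14 and for 7 without Cd mouse 2.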

How the data were processed

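Poly(A)-selected liver RNA of 16 mice, 4 in each of 4 groups, was sequenced on the Illumina NovaSeq platform. The authors deposited TPM, length-normalised transcript abundances rounded to 2 decimals, for 57010 genes. The submitters' processing notes name fastp, HISAT2, StringTie and the genome build GRCh38, although the gene identifiers are those of mouse, so the build behind the values is uncertain. Each sample title names 2 runs and how they were joined is not given in the sources used here. TPM keep no read counts, so the depth is unknown and no counting interval is given. Precision rests on 4 mice a group, and p-values weigh a difference against the spread between mice within a group. That spread was pooled over all 16 libraries and moderated with an intensity trend, so control and Se mice also set it.

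Genes with a mean TPM of at least 1 over the 16 libraries were tested (11766, of which 10483 protein-coding) as log2(TPM + 1), so fold changes of low genes are understated. limma 3.58.1 in R 4.3.3 fitted the 4 group means with an intensity trend, and p-values were adjusted by Benjamini-Hochberg over all genes tested, with a threshold of 0.05. The same fit was run after each library was centred on its median. The fit was tested on simulated data. Transcript lengths and GC content came from the GENCODE M21 annotation, and promoters from RefSeq (GRCm38.p6). Tables were handled in Python 3.11.15 with pandas 2.3.3.

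The genes named are the 12 largest rises and the 12 largest falls that passed under both scalings without overlap of the groups, outside the KEGG ferroptosis and glutathione annotations and unnamed gene models, then up to 3 members of each of 48 gene lists that passed both (or the 1 that differed most, as a value), the metallothioneins Mt1 and Mt2 and hepatocyte markers. Ctnnd1, Tjp1, Insr, Klf15, Abcb11, Nr1h4, the 4 small apolipoproteins, Ndufv2, Uqcrq, Atp5e, Ndufs5, Ly6g, Cftr and the other cell type markers given only by their ranges were added after their values were seen. Of the genes this rule names, 8 are not reported here, though counts over all named genes and lists include them. The members and lists were chosen with earlier results of these data known. Alternatives were another pseudocount (0.1), a higher filter (5 TPM) and none, quantile normalization, a variance for each group, no intensity trend, protein-coding genes only, a minimum log2 fold change of 1, a correction for transcript length and GC content, the 8 compared libraries alone, and each mouse left out in turn.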

Additional observations from a re-analysis of the deposited data

Results flagged for a closer look

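In 10 of 222 groups of 4 mice looked at among the genes reported here, 1 mouse stood apart from the other 3, its gap taking more of the group's range than Dixon's critical value for 4 samples. Chance alone flags about 1 in 20 groups, which is 11.1 here. Cd+Se mouse 15 stood apart for Slc39a14 (136 TPM, a gap of 0.972 of the range), Nr0b2 (17.9 TPM, 0.958) and Fkbp5 (87.0 TPM, 0.869), where it was high. Cd+Se mouse 16 was low for H4c17 (0 TPM, 0.957) and Met (14.1 TPM, 0.944). Among Cd mice, mouse 5 was low for Prpf8 (8.77 TPM, 0.965) and Hadha (42.9 TPM, 0.835), mouse 6 was low for Sco2 (5.99 TPM, 0.928), and mouse 1 was high for Ndufab1 (155 TPM, 0.863) and Cyp2e1 (3957 TPM, 0.832).

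For 17 genes reported here the difference between Cd+Se and Cd was unlike that between Se and control by the interaction term (limma adjusted p under 0.05). It was positive on the log2 scale for Steap4 (1.91), Arf6 (1.79), A1cf (1.62), Lyve1 (1.62), Cyb5d1 (1.58), Pdxk (1.52), Urad (1.46), Irgm2 (1.21), Prox1 (1.18), Met (1.07), Apoa5 (1.04), Il6st (0.99) and Tpm3 (0.89). It was negative for H4c17 (-1.87), Pdgfrl (-1.40), Selenok (-1.20) and AY074887 (-1.08). These calls depended on single mice and on the filter. Over all named genes 18 passed, against 1 without Cd+Se mouse 14, 7 without Cd mouse 2 and 4 with no filter on low values.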

How the results depend on the processing

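Counts of protein-coding genes changed with the libraries that set the spread, the filter and the scaling. With the 8 compared libraries alone, 44 genes were higher and 9 lower as deposited, 354 and 580 after centring, and 43 and 9 under both scalings. With no filter on low values, 887 were higher and 135 lower as deposited, 253 were lower after centring and 135 lower under both. A variance for each group gave 943 higher and 104 lower as deposited and 104 lower under both, the length and GC correction 128 lower as deposited and under both, and quantile normalization 735 lower. Median centring gave 913 higher and 1088 lower against 1560 and 205 as deposited. A log2 fold change of at least 1 left 55 higher and 12 lower as deposited, 19 and 27 after centring, and 19 and 12 under both. With 1 mouse left out, higher genes numbered 577 to 1893 as deposited, 466 to 1090 after centring and 417 to 1069 under both, and lower genes 68 to 213, 634 to 1256 and 68 to 213. The cause was not tested.

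Of 106 named genes that passed both scalings, 41 lost the call as deposited with at least 1 mouse left out and 12 others only after centring. Among all 119 named, 24 kept their side of the threshold in every alternative, and 70 in every one but the 8-library fit. Signs turned for 2 genes that passed no test, Hba-a1 (0.10 with the length and GC correction, and -0.32 to 0.05 with a mouse left out) and Apoa1 (0.07 with quantile normalization, 0.17 with the length and GC correction, and -0.21 to 0.14 with a mouse left out). The interaction, which passed for 18 named genes, passed for 4 with no filter, 45 with quantile normalization, 51 after centring, 28 with protein-coding genes only and 1 to 28 with a mouse left out (1 without Cd+Se mouse 14, 7 without Cd mouse 2 and 28 without Cd mouse 1), alternatives chosen after seeing the data. No paired analysis was possible because the groups share no mouse numbers. Unknown depth limits what can be said of genes near 1 TPM.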
